A study of Mus musculus with 25 samples.

Results

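The lung transcriptome 4 h into calorie restriction (CR) was compared with that of fed mice killed at the same hour. All animals were C57BL/6 mice, an inbred laboratory strain, with no transgene or other treatment named in the labels. The CR mice had their food cut by 2/3, and the 4 h group gave 2 arrays (1a and 1b). The fed group of that hour, described as always fed, also gave 2 arrays (1a and 1b), although the wording of the control labels repeats the 2/3, so how these mice were fed is not fully certain. The arrays were chosen by the treatment and hour in their titles: 4 of the 25 arrays of the series, whose title names alveoli loss during a time course of restriction. The other arrays used here are CR and fed at 2 h (4 arrays), CR and fed at 12 h (4 arrays), and CR at 24, 48, 72 and 96 h with fed at 0 h (12 arrays). Age and sex are not given in the sources used here, nor is it said whether the letters a and b mark separate mice or repeat arrays of 1 RNA. The p-values therefore measure the spread between these arrays, which may be technical. Affymetrix MG-U74Av2 arrays carry 12488 probe sets, of which 12422 are not controls. After dim probe sets were left out, 7440 were tested, covering 5706 genes by symbol.

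When food is withdrawn, insulin falls, and glucagon and adrenal glucocorticoids rise. Glucocorticoids enter cells and bind their receptor, which moves to the nucleus and switches on genes such as Fkbp5, Zbtb16, Ddit4, Pdk4 and Per1, while fatty acids from adipose tissue activate PPAR receptors, which raise genes of fat use such as Angptl4 and Acot1. The lung expresses the glucocorticoid receptor strongly, and its surfactant-producing alveolar type II cells and fibroblasts are known targets of the hormone.

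The 4 arrays were alike in range. Their deposited median signals were 330.6 and 316 for CR and 300.2 and 308.8 for fed, and their highest signals lay between 31600 and 37740. CR 1b correlated more closely with fed 1a (r = 0.977) and fed 1b (r = 0.972) than with its own partner CR 1a (r = 0.969), across the probe sets tested. The fed arrays correlated at r = 0.976 with each other. The ratio of the 3′ to the 5′ probe set of actin, a sign of RNA integrity, was 1.8 and 1.24 in CR and 1.49 and 2.37 in fed. Markers of type II cells, club cells and endothelium were high on all 4 arrays, and the thyroid marker Tg stayed at the floor. Heart muscle markers were present as well: 8 of 9 were above the floor on at least 1 array, with a summed signal of 17412 and 19717 in CR and 21557 and 21407 in fed.

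No probe set passed the test of CR against fed at 4 h. With limma and Benjamini-Hochberg adjustment, 0 of 7440 probe sets (0%) passed, and the smallest adjusted p was 0.976. At an unadjusted p under 0.05 there were 130 probe sets (1.75%), 50 higher (0.672%) and 80 lower (1.08%) in CR. The balance of those directions turned with the scaling, since 63 were higher and 41 lower after quantile normalization and 86 were higher and 39 lower on the deposited values without rescaling. The median of all log2 differences was -0.07 with the scaling used, -0.00 with quantile normalization and 0.02 without rescaling. The count at an unadjusted p under 0.05 (limma) also depended on the groups fitted. It was 327 (4.4%) with the fed 0 h arrays, numbered 1 and 2, as 2 groups. It was 393 (5.28%) with the 6 early groups alone and 791 (10.6%) with the 4 arrays alone, 185 higher and 606 lower. The smallest adjusted p was 0.19, 0.0918 and 0.0755, in that order, and 0 probe sets passed in each. Why the count changed was not tested. Weighting the arrays by their quality gave 4 calls, fitting the 4 arrays alone with the letter as a block gave 2, and leaving out CR 1b gave 1.

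The precision of this comparison can be read from its intervals, which use the variance pooled over all groups fitted. The 95% interval of the CR to fed ratio stayed within 2-fold in either direction for 5179 probe sets (69.6%). The median half-width of an interval was 0.62 on the log2 scale. Estimated differences over 2-fold were seen for 44 probe sets in the higher and 33 in the lower direction, none of which passed.

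The gene with the smallest p was Cyp4v3, which encodes an omega-hydroxylase of fatty acids. Its signal was 2300 and 3926 on the CR arrays and 1054 and 1027 on the fed arrays. The groups did not overlap, but the CR arrays lay far apart, and the ratio was 2.89 (log2 1.53, SE 0.32, 95% interval 0.86 to 2.20; limma adjusted p = 0.976). Cyp4v3 was called with array weights (limma adjusted p = 0.00289) and in the 4 arrays alone with the letter as a block (0.0484). Chaf1a, the large subunit of the chromatin assembly factor, stood at 399.7 and 343.4 in CR and at 119.3 and 91.48 in fed. Its log2 difference was 1.83 (SE 0.50, interval 0.78 to 2.87), with the fed values near the floor of 80.37. With arrays weighted by quality Chaf1a was called (limma adjusted p = 0.0489).

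The other 6 genes with the smallest p in the higher direction covered unrelated functions. Nfatc3, a transcription factor activated by calcineurin, read 425 and 500.7 in CR against 292.1 and 168.6 in fed (log2 1.06, SE 0.30). Etfb, the beta subunit of the flavoprotein that takes electrons from fatty acid oxidation, read 430.7 and 433.5 against 271 and 120.5 (log2 1.26, SE 0.36). Both genes had fed 1b far below fed 1a. Npr3, the clearance receptor of natriuretic peptides, read 652.7 and 678.9 against 431.1 and 312.7 (log2 0.86, SE 0.31). Sh3d19, an adaptor with SH3 domains, read 574.4 and 722 against 355 and 428.2 (log2 0.72, SE 0.26). Trpm1, a cation channel of melanocytes and retina, read 346 and 303.3 against 223.2 and 78.49, the last of which is under the floor of 80.37, so its log2 difference of 1.27 is a fit to a floored value. Ica1, a vesicle-associated autoantigen, read 2233 and 1709 against 1173 and 464.7 (log2 1.40, SE 0.36).

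In the lower direction the smallest p belonged to Ank1, the ankyrin of the red cell membrane skeleton. Its signal was 464 and 709.1 in CR and 1111 and 1118 in fed (log2 -0.96, SE 0.25, interval -1.48 to -0.43; limma adjusted p = 1), and with array weights it was called (limma adjusted p = 0.0387). Tgfb3, a ligand of the TGF-beta family that acts in lung branching and repair, read 1251 and 1796 in CR and 2598 and 2325 in fed (log2 -0.71, SE 0.20). Klf10, a transcription factor induced by TGF-beta, read 932 and 963.9 against 1537 and 1327 (log2 -0.59, SE 0.18). For all 3, both CR arrays lay below both fed arrays.

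Erdr1, named for a role in red cell differentiation, read 3331 and 3680 in CR and 5895 and 5887 in fed, with nearly equal fed arrays (log2 -0.75, SE 0.21). Itga7, the laminin-binding integrin of muscle, read 100.2 and 550 against 652.3 and 727.3 (log2 -1.55, SE 0.52), so CR 1a alone carried most of the difference. Without CR 1b its log2 difference became -2.78 and it was the only call (limma adjusted p = 0.029). Dctpp1, an enzyme that clears dCTP, read 80.27 and 98.14 against 282.5 and 372.9 (log2 -1.87, SE 0.54), with CR 1a just under the floor of 80.37. Cct3, a subunit of the cytosolic chaperonin, read 520.4 and 601.8 against 849.7 and 1023 (log2 -0.74, SE 0.25), and the predicted gene Gm1673 read 256.4 and 299.4 against 434.2 and 457.8 (log2 -0.69, SE 0.23).

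**Figure D1:**
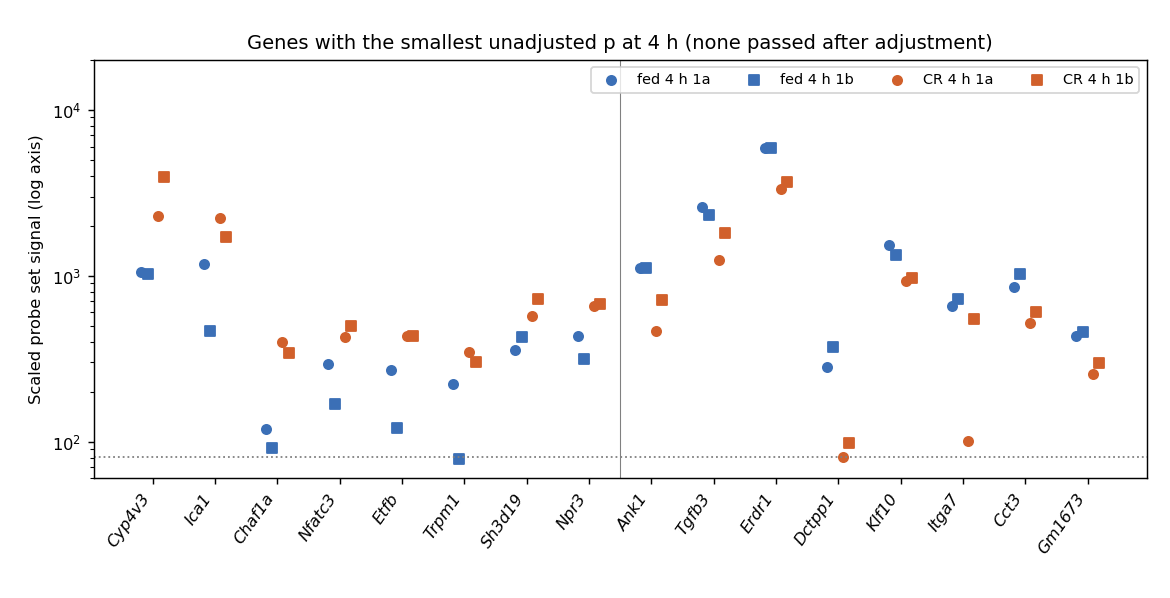
Scaled signal (log axis) of the 8 genes with the smallest unadjusted p in each direction, 1 point per array, fed in blue and CR in orange, circles for 1a and squares for 1b; the dotted line is the floor of 80.37. Left of the vertical line both CR points lie above both fed points and right of it below them, which choosing genes by smallest p favoured. No gene passed the adjusted threshold.

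Several of these genes have other probe sets on the array, none with a difference as large. A second Ank1 probe set gave a log2 difference of -0.04 (interval -0.62 to 0.55), with CR at 971.6 and 680.8 and fed at 851.4 and 820.3. The second Ica1 probe set gave 0.04 (interval -0.51 to 0.58), and that of Etfb gave -0.14 (interval -0.80 to 0.52). Of the other Cct3 probe sets, 1 gave 0.05 and 1 gave -0.27. The second probe sets of Dctpp1 (-0.26), Klf10 (-0.25), Itga7 (-0.23), Gm1673 (-0.23), Npr3 (0.48) and Erdr1 (-0.73) kept the direction with a smaller size. Of the 16 genes, 6 (37.5%) were read by probe sets whose name ends in a letter such as _f_at or _r_at, Affymetrix's mark for probes that cross-match related sequences or break a design rule, against 19.2% of all probe sets tested.

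The glucocorticoid response, a list of 30 genes of which 28 were measured, had no member that passed at 4 h. Its median log2 difference was 0.02, against -0.07 over all probe sets. In 9 of the 28 genes both CR arrays lay above both fed arrays, and in 5 they lay below, where the shares over all probe sets were 13.3% above and 30.4% below. With quantile normalization the list's median was 0.12, with 14 genes above and 4 below, against 19.2% and 20.8% of all probe sets. On the deposited values without rescaling it was 0.10, with 15 above and 5 below, against 22.6% and 19.9%. The list was chosen with the later response in these data known.

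Fkbp5, a co-chaperone that restrains the receptor and one of the most inducible targets of the hormone, stood at 724.1 and 895 in CR and at 937 and 769 in fed. The arrays overlapped, and the log2 difference was -0.08, with an interval from -0.65 to 0.49. In ratios, the interval ran from 0.639 to 1.41 times the fed level. Zbtb16, a zinc finger repressor induced by glucocorticoids, read 1952 and 2036 in CR and 2022 and 1936 in fed (log2 0.01, interval -1.08 to 1.10). Ddit4, which restrains mTOR under stress and fasting, read 754.3 and 791.1 against 712.8 and 939 (log2 -0.08, interval -0.48 to 0.32). The arrays of both genes overlapped as well, the former with a wide interval.

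Genes of the list that other fasting tissues use also lay near the fed level. Pdk4, the kinase that shuts pyruvate out of the mitochondrial oxidation of glucose, read 373.8 and 347.4 in CR and 351 and 455.4 in fed (log2 -0.15, interval -0.74 to 0.45). Cdkn1a, the cell cycle inhibitor p21, read 668.3 and 815.6 against 890.2 and 811.8 (log2 -0.20, interval -0.72 to 0.31). The immediate targets Dusp1 (0.13, interval -0.18 to 0.44), Sgk1 (-0.23, interval -0.72 to 0.27) and Cebpd (0.16, interval -0.23 to 0.55), in log2, had intervals that include 0.

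The 4 members with the smallest p pointed both ways. Klf9, a Krüppel-like factor and direct receptor target, read 3526 and 4133 in CR and 2683 and 1885 in fed (log2 0.76, SE 0.35). Its second probe set gave 0.30 (interval -0.42 to 1.02). Per1, a clock gene that the hormone also induces, read 936 and 753.9 against 524.9 and 514.1 (log2 0.69, SE 0.31). Both genes had CR arrays above the fed arrays, and both had limma adjusted p = 1.

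Errfi1, a feedback inhibitor of the EGF receptor, read 4220 and 5004 in CR and 3874 and 3330 in fed (log2 0.36, interval 0.01 to 0.70), and its second probe set gave 0.54. Mt1, a metallothionein that binds zinc, went the other way, with 2193 and 2384 in CR and 3109 and 3146 in fed (log2 -0.45, interval -0.89 to -0.01). Mt2, its neighbour and relative, read 3610 and 4050 against 4611 and 4398 (log2 -0.24, interval -0.58 to 0.11). The metallothioneins were thus below the fed arrays on both CR arrays without passing the test.

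The stretches before the transcription starts of Fkbp5, the gene with the smallest p for a difference between the 4 h and late effects, and of Per1, the clock gene with the smallest p, are shown because both hold an E-box, the CACGTG motif bound by the clock proteins CLOCK and BMAL1 (here in capitals). They are the 250 bases upstream, 5′ to 3′ on the gene's strand, from RefSeq on GRCm38.p6: Per1 lies at chr11:69098699-69098948 on the plus strand and Fkbp5 at chr17:28486150-28486399 on the minus strand.
Per1: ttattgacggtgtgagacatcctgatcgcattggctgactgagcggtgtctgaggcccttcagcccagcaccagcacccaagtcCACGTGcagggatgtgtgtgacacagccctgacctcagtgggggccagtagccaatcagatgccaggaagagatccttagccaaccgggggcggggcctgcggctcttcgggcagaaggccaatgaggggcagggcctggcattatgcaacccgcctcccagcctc
Fkbp5: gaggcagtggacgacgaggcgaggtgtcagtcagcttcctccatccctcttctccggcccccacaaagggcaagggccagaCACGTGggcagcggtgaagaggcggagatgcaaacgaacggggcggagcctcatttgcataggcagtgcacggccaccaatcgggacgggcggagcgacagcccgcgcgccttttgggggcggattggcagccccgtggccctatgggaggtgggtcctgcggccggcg
The E-box begins 166 bases upstream of the start in Per1 and 169 bases upstream in Fkbp5. Searched on both strands, CACGTG was found in 6.02% of 32851 windows of this length. The palindromic glucocorticoid response element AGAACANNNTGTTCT was found in 0.00913% of them, and in neither of these windows. Of the 30 named genes whose 4 h and late effects differed, 22 had such windows, 33 windows in all. The E-box was in 4 of these 33 windows, from 3 genes, and the response element in 0. As the response element was found in only 3 of all 32851 windows, its absence here is uninformative.

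No gene of fuel use passed. Of 22 measured genes of fatty acid oxidation and PPAR targets, 4 had both CR arrays above fed and 8 had both below, near the 13.3% and 30.4% of all probe sets, and the median log2 difference was -0.07, equal to that of all probe sets. Angptl4, a secreted inhibitor of lipoprotein lipase and a PPAR target, read 815.8 and 935.7 in CR and 648.2 and 661.2 in fed (log2 0.42, interval -0.02 to 0.85). One of its other probe sets gave 0.31 and the dimmest gave -0.60. Acaa2, a thiolase of mitochondrial fatty acid oxidation, read 11493 and 11531 against 14317 and 13714 (log2 -0.28, interval -0.61 to 0.05). Lpl, lipoprotein lipase itself, read 2261 and 2187 against 1899 and 1888 (log2 0.23, interval -0.16 to 0.62).

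Lipid synthesis and insulin signalling were likewise close to fed. The 15 measured genes of fat synthesis and fat cells had a median log2 difference of -0.06. Scd1, the desaturase that makes oleate, read 22842 and 21369 in CR and 25636 and 25785 in fed (log2 -0.22), and Retn, a fat cell hormone, read 163.4 and 246.8 against 473.2 and 390.4 (log2 -1.10, interval -2.50 to 0.30). Fat cell markers summed to 1952 and 1773 in CR and 2460 and 2299 in fed, and their part in these differences was not tested. The 21 genes of insulin, IGF and mTOR signalling had a median of -0.13. Igfbp4, a binding protein that holds IGF from its receptor, read 1567 and 1422 against 1818 and 2356 on its brightest probe set (log2 -0.47, interval -0.92 to -0.02), and Akt2, the insulin-responsive kinase, read 1223 and 1417 against 1670 and 1796 (log2 -0.40, interval -0.89 to 0.10).

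Later in the series many hormone-responsive genes were raised, and the 4 h effect was tested against the late effect. The late effect is the mean of CR at 24, 48, 72 and 96 h over fed at 0 h. In the glucocorticoid list it was called higher for 20 of 28 measured genes and lower for 2. The 4 h and late comparisons share no control arrays. The late effect itself was called for 733 probe sets higher (9.85%) and 613 lower (8.24%). Its difference from the 4 h effect passed for 33 probe sets (0.444% of 7440; limma), 31 with the 4 h effect lower (0.417%) and 2 with it higher (0.0269%). Members of the glucocorticoid list made up 12 of the 33, out of 28 measured, all with the 4 h effect lower. The comparison was added with both responses known, and the glucocorticoid list was chosen with the later response known. Its counts here are therefore a description.

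Fkbp5 showed the difference with the smallest p. Its late effect was 3.23 on the log2 scale (9.41-fold) against -0.08 at 4 h, a difference of -3.31 (interval -3.98 to -2.64; limma adjusted p = 2.75e-05). Zbtb16 reached 3.54 late (11.7-fold) against 0.01 at 4 h, Map3k6, a stress-activated kinase, 3.36 (10.3-fold) against 0.46, and Pdk4 2.85 (7.23-fold) against -0.15. For Ddit4 the late effect was 1.94 and for Cdkn1a 1.98, against -0.08 and -0.20 at 4 h. Each of these 6 genes rose late by at least 3.82-fold over fed at 0 h. Each had an interval at 4 h that includes 0. Mean fed signals at 0 h and 4 h were 336.1 and 853 for Fkbp5, and 805.7 and 1979 for Zbtb16. They were 205.8 and 328.2 for Map3k6, and 290.3 and 403.2 for Pdk4. For Ddit4 (977.1 and 825.9) and Cdkn1a (943.3 and 851) the fed mean was higher at 0 h. The part of the control hour in these differences, and in the other calls, was not tested.

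Some of the 33 act on lipids, Angptl4 among them, which also belongs to the glucocorticoid list. Lpl (late log2 1.71), Angptl4 (1.90), Pnpla2, the first lipase of fat droplets (1.10), and Acot1, an acyl-CoA thioesterase induced by PPAR-alpha (1.28), all rose late and had 4 h effects of 0.23, 0.42, -0.07 and 0.13. Other genes with lower 4 h effects were Xdh, the xanthine oxidoreductase, at 1.94 late and -0.00 at 4 h, Lyve1, a hyaluronan receptor of lymphatic vessels, at 1.73 and 0.27, and Lox, the enzyme that crosslinks collagen and elastin, at 1.94 and 0.39. The 2 with a higher 4 h effect were Nfatc3, at -0.64 late and 1.06 at 4 h, and Col3a1, a fibrillar collagen, at -0.93 late and -0.08 at 4 h. With the letter as a replicate block neither was called (limma adjusted p = 0.0554 for each), and all 25 calls had the lower effect at 4 h. On other probe sets the 4 h effect minus the late effect was -1.45 for Errfi1, -1.41 for Lpl and -1.10 for Lox (partly at the floor). It was -1.07 for Erdr1, -0.65 for Nfkbia, 0.94 and 0.52 for Col3a1, and -0.70 and 0.02 for Angptl4. None of these differences passed in limma.

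Across all probe sets that rose more than 2-fold late, 148 in number with a median late log2 of 1.28, the median 4 h effect was 0.11, and 25 passed the test of the difference. For the 82 that fell more than 2-fold late (median -1.14), the median 4 h effect was -0.28 and 0 passed (limma). As the late values chose these probe sets, the medians are a description. Each of the 4 arrays at 4 h carried weight, since leaving out CR 1a, CR 1b, fed 1a or fed 1b left 9, 14, 11 or 10 calls.

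The 4 fed arrays at 0 h, numbered 1 and 2, were not alike. Zbtb16 read 250.4 and 443.4 on number 1 and 1107 and 1422 on number 2. With these numbers as separate groups the test gave 184 calls, holding all 33. With the late effect taken as CR 72 and 96 h over number 2, arrays with highest signals of 32150 to 54310, it gave 197 calls, holding 32 of the 33, and with CR 24 and 48 h over number 1 it gave 1508, holding 31.

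**Figure D2:**
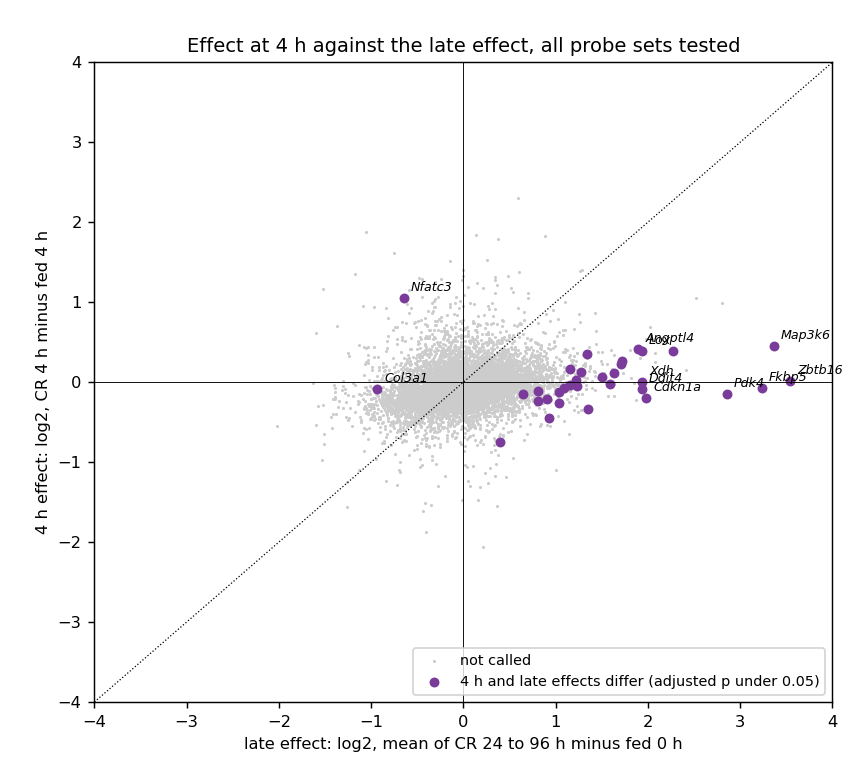
Effect at 4 h (vertical axis, log2 CR minus fed) against the late effect (horizontal axis, log2 mean of CR 24 to 96 h minus fed 0 h) for the 7440 probe sets tested; purple points are the 33 whose effects differ at an adjusted p under 0.05, and the dotted diagonal marks equal effects. The purple points spread to late effects of 3.54. At 4 h many of them lie near 0, while Nfatc3 lies at 1.06 and Erdr1 at -0.75.

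The signal by hour shows where CR and fed parted. Fkbp5 read 716.7 and 888.7 in CR and 1050 and 908.4 in fed at 2 h, close to its level at 4 h. At 12 h it read 4178 and 4382 in CR and 1538 and 1522 in fed (log2 1.48; limma adjusted p = 0.0329). The fed level was not constant, since all 4 fed arrays at 0 h lay between 220.6 and 487.1, below every fed array of 2, 4 and 12 h. At 4 h the CR and the fed arrays alike lay above all fed arrays of 0 h. Ddit4, by contrast, held a narrow fed range, from 712.8 to 1224 over all hours, and its CR arrays reached 2414 and 2469 at 12 h (log2 1.19; limma adjusted p = 0.0105).

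**Figure D3:**
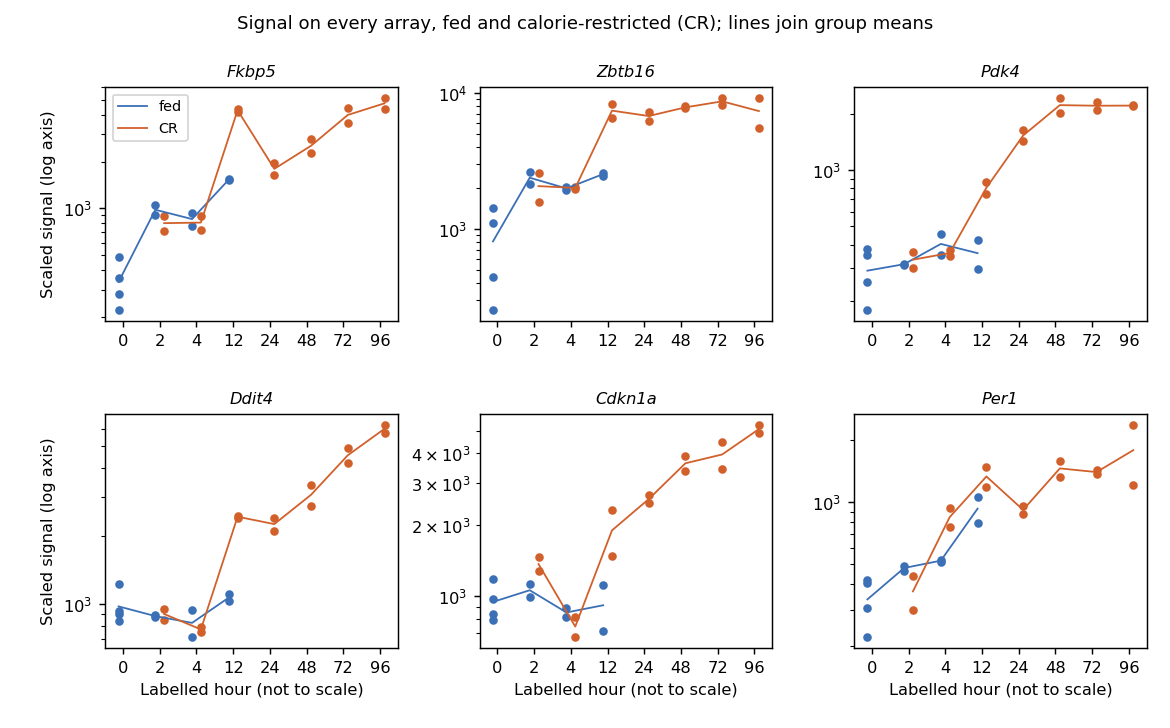
Scaled signal (log axis) of Fkbp5, Zbtb16, Pdk4, Ddit4, Cdkn1a and Per1 on every array by labelled hour (spaced evenly, not to scale), fed in blue and CR in orange, with lines through the group means. At 4 h the CR and fed points overlap for the first 5 genes and are apart for Per1. At 12 h, the last hour with fed points, the CR points of Fkbp5, Zbtb16, Pdk4, Ddit4 and Cdkn1a stand above the fed points.

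Among the core clock genes, which keep cells on a daily cycle, 10 of 12 were measured and none passed. Both CR arrays lay above both fed arrays in 3 genes and below in 2, where the shares over all probe sets were 13.3% and 30.4%. Besides Per1, the repressor Cry2 read 230.5 and 240.3 in CR and 219.1 and 127.2 in fed (log2 0.50, interval -0.30 to 1.29), and the activator Arntl, which encodes BMAL1, read 311.9 and 310.2 against 304.9 and 241.8 (log2 0.20, interval -0.31 to 0.70). Clock, the partner of BMAL1, read 362.1 and 422.5 against 467.1 and 449.9 (log2 -0.23, interval -0.68 to 0.22). The other 6 differed by -0.24 (Nr1d1) to 0.33 (Rora) in log2, with Per2 at 0.17, Per3 at -0.01, Cry1 at -0.05 and Nr1d2 at -0.10.

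The choice of control hour mattered for these genes. Against fed at 2 h in place of fed at 4 h, Arntl turned to -0.92, and the repressors of its transcription Nr1d1 and Nr1d2 turned to 0.88 and 0.71. None of these values passed the test in limma. Per1 and Cry2 kept their direction.

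Genes of energy production and protein turnover had small differences. Of 57 measured genes of oxidative phosphorylation, 44 had both CR arrays below both fed arrays and 1 had both above, with a median log2 difference of -0.25, where the share below over all probe sets was 30.4%. None passed the test. Under quantile normalization the median was -0.14 with 31 genes below, against 20.8% of all probe sets. On the deposited values it was -0.16 with 36 below, against 19.9%. Cox6a1, a subunit of cytochrome c oxidase, read 11675 and 11599 in CR and 15666 and 15284 in fed (log2 -0.41, interval -0.83 to 0.01), and Ndufb3, a subunit of complex I, read 1566 and 1990 against 2755 and 2576 (log2 -0.59, interval -1.26 to 0.07).

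Heart muscle, a tissue rich in mitochondria, can be carried along with lung, and the summed signal of its markers was lower on both CR arrays, as given above. Of the 23 measured genes of heart and skeletal muscle, 8 had both CR arrays below fed and 1 had both above. The shares over all probe sets were 30.4% and 13.3%. After quantile normalization 6 lay below and 4 above, against 20.8% and 19.2% of all probe sets. None passed. Those with the smallest p were Myl7 and Tnni3. Myl7, the atrial myosin light chain, read 4067 and 5178 in CR and 6541 and 6235 in fed (log2 -0.48, interval -0.95 to -0.00), and Tnni3, cardiac troponin I, read 1324 and 1269 against 1545 and 1661 (log2 -0.31). Of the 9 heart muscle markers checked, only Myl2 was at the floor on all 4 arrays. The part of these markers in the oxidative phosphorylation values was not tested. In whole lung, fewer cells of a type and less RNA per cell cannot be told apart.

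Proteasome genes had a median log2 difference of -0.23, with 20 of 35 below and 0 above, against 30.4% and 13.3% of all probe sets. Psme1, a subunit of the interferon-inducible activator cap, read 2831 and 3701 in CR and 4609 and 4716 in fed (log2 -0.53, interval -1.14 to 0.09), and Psmd12, of the regulatory lid, read 1005 and 1154 against 1593 and 1448 (log2 -0.50). Quantile normalization gave a median of -0.13 with 14 below, against 20.8% of all probe sets. Ribosomal proteins and translation factors depended more on the scaling: the median of 34 genes was -0.20 with 21 below, but -0.02 with 7 below after quantile normalization, a share near the 20.8% of all probe sets. Rps4x, a protein of the small ribosomal subunit, read 19400 and 21139 against 25949 and 23310 (log2 -0.28), and Eif5, a translation initiation factor, read 1812 and 2088 against 2290 and 2748 (log2 -0.37).

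Interferon-responsive genes had no member that passed. In 17 of 24 measured genes both CR arrays lay below both fed arrays and in 0 they lay above, against 30.4% and 13.3% of all probe sets, with a median log2 difference of -0.25. Quantile normalization gave -0.16, with 14 below against 20.8%. Irf1, the transcription factor at the head of the interferon-gamma response, read 2273 and 2928 in CR and 3341 and 3235 in fed (log2 -0.35, interval -0.69 to -0.01). Irgm2, an immunity-related GTPase, read 1306 and 1473 against 2286 and 1828 (log2 -0.56, interval -1.11 to -0.01). Irf9, the DNA-binding part of the type I interferon complex, and Tap1, the peptide transporter that loads MHC class I, gave log2 differences of -0.37 and -0.29.

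MHC class II genes, which present antigen on dendritic cells, macrophages and B cells, had a median of -0.31, with 6 of 10 below and 0 above, against 30.4% and 13.3% of all probe sets. H2-Eb1 read 8330 and 8125 in CR and 11183 and 10473 in fed (log2 -0.40, interval -0.96 to 0.17), and H2-Aa read 11947 and 11629 against 14652 and 14714 (log2 -0.32, interval -0.82 to 0.19). Macrophage markers summed to 20553 and 18789 in CR and 24333 and 22550 in fed, and B cell markers to 5498 and 6028 against 6006 and 6379, with none of either at the floor on all 4 arrays. Neutrophil markers summed to 2069 and 2454 against 3192 and 3015. The part of these cells in the class II and interferon values was not tested.

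Stress responses held a few separate members. In the unfolded protein response, 16 genes had a median of -0.06, while the disulphide isomerases of the endoplasmic reticulum Pdia3 and Pdia4 lay above fed. Pdia3 read 3348 and 3771 in CR and 1694 and 2708 in fed (log2 0.73, interval 0.09 to 1.38), and Pdia4 read 1193 and 1155 against 649.7 and 862.2 (log2 0.65, interval 0.03 to 1.27). Neither passed. The 24 immediate early genes had a median of -0.00, with Jun, a subunit of AP-1, at 1890 and 1587 against 1322 and 1371 (log2 0.36) and the nuclear receptor Nr4a1 at 363.6 and 540 against 561.6 and 603.2 (log2 -0.39).

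No structural gene of the alveolus passed. Elastic fibre and matrix genes had a median log2 difference of 0.05 (29 genes, 8 above and 5 below) and collagens 0.07 (17 genes, 4 above and 3 below), where 13.3% of all probe sets lay above and 30.4% below. Eln, the elastin gene, read 6781 and 5402 in CR and 5274 and 4840 in fed (log2 0.26, interval -0.21 to 0.73), and Lox read 722.2 and 736.3 against 648.1 and 478.2 (log2 0.39, interval -0.21 to 0.99). Of the collagens with the smallest p, Col15a1 gave -0.47 (interval -1.43 to 0.49) and Col8a1 gave 0.28 (interval -0.32 to 0.88). Endothelial genes had a median of 0.03, with 11 of 31 above and 8 below, against the same shares. After quantile normalization the median was 0.13, with 12 above and 4 below, against 19.2% and 20.8%. The members with the smallest p both lay lower in CR, with the vessel sialomucin Emcn at -0.27 and Acvrl1, a receptor for BMP9, at -0.26.

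Alveolar type II and surfactant genes had a median of -0.22, with 8 of 14 below and 0 above, against 30.4% and 13.3% of all probe sets. After quantile normalization it was -0.05 with 1 below and 3 above, against 20.8% and 19.2%, and after cyclic loess it was 0.01. The direction of this list thus depended on the scaling. Cebpa, a transcription factor of type II cell maturation, read 6826 and 8916 in CR and 8891 and 10657 in fed (log2 -0.32), with overlapping arrays, and Fabp5, a fatty acid binding protein of these cells, read 1120 and 1510 against 1935 and 1751 (log2 -0.50, interval -1.20 to 0.20). Type II cell markers summed to 56899 and 44905 in CR and 54823 and 55961 in fed.

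**Figure D4:**
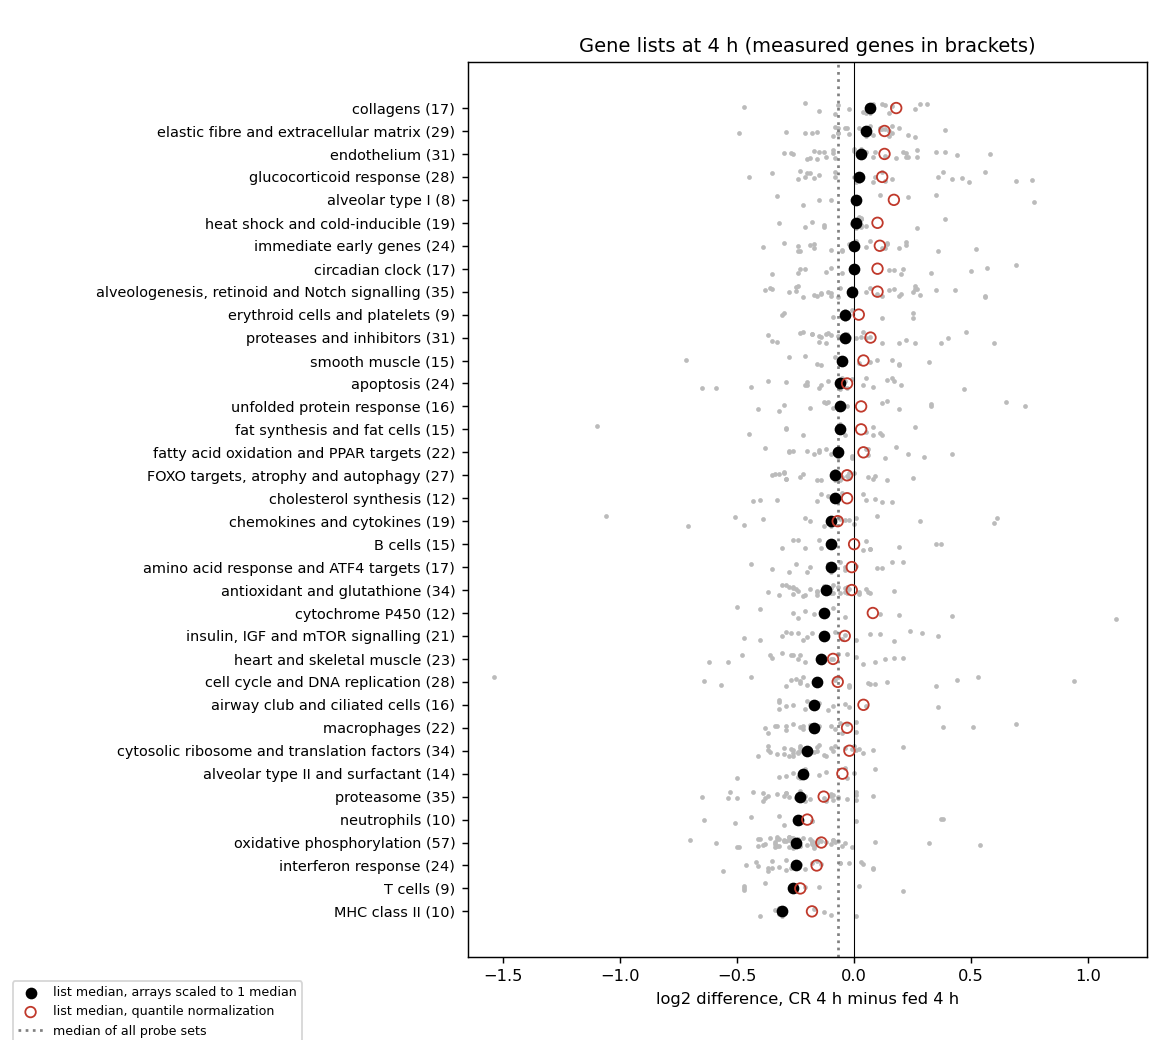
Log2 difference (CR 4 h minus fed 4 h) of the measured genes of each list with at least 8 of them (grey points); black dots are list medians with arrays scaled to 1 median, red circles those after quantile normalization, and the dotted line is the median of all probe sets at -0.07. The lowest median is that of MHC class II at -0.31 and the highest that of collagens at 0.07, and the red circles lie closer to 0 for the low lists shown.

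The effect at 4 h was also set against those at 2 h and 12 h, each with fed mice of the same hour. The difference from the 2 h effect passed for 0 of 7440 probe sets (0%), with 426 at an unadjusted p under 0.05 (5.73%) and a smallest adjusted p of 0.328 (limma). The 4 genes with the smallest p were Nfatc3, Cyp4v3, a second Igfbp4 probe set and Ddx6, an RNA helicase of P-bodies. Their 4 h effect minus the 2 h effect was 2.06, 2.13, -1.48 and 1.80 on the log2 scale, in that order. With arrays weighted by quality 21 probe sets were called, these 4 among them, and with the fed 0 h numbers as separate groups 11 were.

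Several lists had medians of opposite sign at the 2 hours. Oxidative phosphorylation was at 0.26 at 2 h and -0.25 at 4 h, the proteasome at 0.29 and -0.23, MHC class II at 0.43 and -0.31 and interferon genes at 0.21 and -0.25. The CR 2 h arrays had highest signals of 76230 and 78840 and the fed 2 h arrays of 40910 and 47510, while all 4 arrays at 4 h were alike in this range. The part of that range in the 2 h medians was not tested.

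The difference from the 12 h effect also passed for 0 probe sets (0%), with 230 at an unadjusted p under 0.05 (3.09%) and a smallest adjusted p of 0.131 (limma). Pax5, the factor that keeps B cells in their lineage, read 722.4 and 612.3 in CR and 561.6 and 487.1 in fed at 4 h (log2 0.35), and its 12 h effect was -2.05 (limma adjusted p = 0.00561). Mt2 moved from -0.24 at 4 h to 1.01 at 12 h, Ddit4 from -0.08 to 1.19, and Cars, the cysteinyl-tRNA synthetase, from -0.44 to 2.12. Cars read 82.64 and 75.62 on the fed 12 h arrays, the last of which is under the floor of 80.37. The size of its 12 h effect is therefore a fit to a floored value. Across the probe sets tested, the 12 h effect was called for 11 (0.148%), and the effect at 2 h for 0. With the 6 early groups alone in the fit the test of 4 h against 12 h gave 2 calls, Pax5 and Mt2, and without the filter on dim probe sets it gave 12.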

How the data were processed

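Lung RNA was hybridized to Affymetrix MG-U74Av2 arrays, and the authors deposited linear probe set intensities already scaled to 1 trimmed mean of 799.8 per array, as tested on the values. No source used here names the software. One further array of the series, whose labels disagree, was not used. Intensities of 24 arrays in 11 groups were scaled by 0.92 to 1.05 to a common median, raised to the 25th percentile (80.37), and put on the log2 scale. Probe sets at or above their array's median on at least 2 arrays were kept (7440 of 12422). Names came from the platform annotation (2016). A linear model of group means was fitted in limma 3.58.1 (R 4.3.3), with variances moderated by eBayes along the intensity and 13 residual degrees of freedom. Tests were two-sided, with a Benjamini-Hochberg adjusted p under 0.05 over all probe sets tested. Folds are ratios of geometric means with 95% intervals. Signals are arithmetic. The pipeline was tested on simulated data.

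Each list was read by 1 probe set per gene, the brightest, and described by counts and medians, without a test. Genes named are the 8 smallest p per direction, and up to 4 per list by smallest p. Named too are the 4 smallest p of each comparison of effects with 2 h and 12 h. All measured core clock genes and those called against the late effect complete them. Other list members, and the 2 h and 12 h values, were named after their values were seen. The members and lists were chosen with earlier results of these data known. Alternatives changed the normalization, floor, filter, variance model, array weights, block, control hour and arrays left out. Deviations from the group means of CR and fed at 4 h correlated at -0.04 between arrays of the same letter, so no shared shift by letter was seen. With 2 arrays a group this cannot tell whether a and b were paired by design. Precision is limited by the low number of arrays.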

Additional observations from a re-analysis of the deposited data

Results flagged for a closer look

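The effect of calorie restriction at 4 h differed from the late effect for 33 probe sets by a test of the difference itself (limma, adjusted p under 0.05), 3 of them without a gene symbol. On the log2 scale, the 4 h effect minus the late effect was 1.70 for Nfatc3 and 0.85 for Col3a1, the pair with a higher effect at 4 h. Among the genes with a lower effect at 4 h, the largest differences were Fkbp5 -3.31, Ddit4 -2.02, Pdk4 -3.00, Cdkn1a -2.19, Map3k6 -2.91, Zbtb16 -3.53 and Xdh -1.94. The others were Cdc42ep4 -1.61, Slc10a6 -1.52, Lpl -1.48, Sphk1 -1.30, Angptl4 -1.48, Selenbp1 -1.28, Lyve1 -1.46, Nfkbia -1.20, Pnpla2 -1.16, Mt1 -1.38, Mt2 -1.04 and Tinagl1 -1.68, followed by Abcg2 -1.19, Errfi1 -0.99, Acot1 -1.15, Herpud1 -0.92, Pim3 -1.15, Erdr1 -1.15, Ppp1r21 -0.80, Lox -1.55 and Cebpd -0.99. None of these genes passed the test at 4 h alone.

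In the fed 0 h group, 1 array stood apart for Ppp1r21, at 2416 against 2210, 2215 and 2241 on the other 3. Chance sets about 1 in 20 such groups apart, and 30 genes were checked.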

How the results depend on the processing

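No call was made for CR against fed at 4 h under any normalization, floor, filter, trend, robust or fed-control alternative; 4 were made with array weights, and leaving out 1 array at a time gave 0 to 1 (Itga7, without CR 1b). The letter as a replicate block gave 0 calls over all arrays and 2 in the 4 arrays alone. For 4 h against 2 h, the counts were 1 without the filter, 1 without the intensity trend, 21 with array weights and 11 with fed 0 h numbers as 2 groups, and 0 with any 1 array left out. For 4 h against 12 h they were 12 without the filter, 8 with array weights, 2 in the early groups alone, 3 with fed 0 h numbers as 2 groups, and 0 to 1 with 1 array left out. For 4 h against the late effect, a comparison added after the data were seen, the 33 calls became 18 with cyclic loess, 77 with array weights, 184 with fed 0 h numbers as 2 groups, 197 and 1508 with the late effect split by fed 0 h number, and 9 (without CR 1a) to 53 (without fed 0 h 2b) with 1 array left out, including 18 without CR 72 h 1b and 21 without CR 24 h 1a. The replicate block gave 25, of which 24 were shared, all with the lower effect at 4 h. The causes were not tested.

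Some log2 differences at 4 h changed sign, and none of these passed in either setting. Against fed 2 h they were Nfatc3 -0.28, Etfb -0.06, Erdr1 0.15, Mt1 0.15, Acaa2 0.05, Akt2 0.24, Nr4a1 0.15, Tap1 0.04, Irf9 0.24, H2-Eb1 0.18, H2-Aa 0.14, Cox6a1 0.01, Psmd12 0.49, Cebpa 0.07, Lox -0.09, Eln -0.35, Emcn 0.09, Rora -0.03, Arntl -0.92, Nr1d1 0.88, Nr1d2 0.71 and Cry1 0.13. Against fed 2 h and 4 h together they were Eln -0.05, Arntl -0.36, Nr1d1 0.32, Nr1d2 0.30 and Cry1 0.04. Cyclic loess gave Cry1 0.02 and Per3 0.01, and the deposited values gave Cry1 0.03 and Per3 0.08. With 1 array left out the ranges were -0.05 to 0.61 for Col8a1, -0.01 to 0.66 for Rora, -0.49 to 0.00 for Nr1d1, -0.01 to 0.36 for Per2, -0.16 to 0.05 for Cry1 and -0.19 to 0.17 for Per3.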
